A study of Mus musculus with 24 samples.

Results

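The genes described here encode the proteins of the mouse mitochondrial ribosome and were chosen by name: every protein-coding gene of the deposited count matrix whose symbol is Mrpl or Mrps followed by a digit. Of 53677 gene identifiers in the matrix, 78 met this rule, 49 named Mrpl and 29 named Mrps, and 77 of them passed the filter on low counts that left 14533 genes for testing. Liver RNA was sequenced from 24 mice, with 1 library for each mouse. The inbred strain 129S1/SvImJ gave 5 mice fed chow and 6 fed a high-fat diet, and the inbred strain C57BL/6J gave 6 fed chow and 7 fed the high-fat diet. No genetic modification or drug is given in the labels, which also leave out the age and sex of the mice, the make-up of the diets and the length of feeding, so the groups are a model of strain and diet only as far as those names go.

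The mitochondrial ribosome translates the few messenger RNAs encoded by mitochondrial DNA, which specify core subunits of the oxidative phosphorylation complexes in the inner membrane. Its RNAs are made inside the organelle, whereas all of its proteins are encoded in the nucleus, made on cytosolic ribosomes and imported. Many of the proteins descend from those of the bacterial ribosome, and the rest were added during the evolution of mitochondria. Hepatocytes are rich in mitochondria, which oxidise fatty acids in the liver.

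By assigned role, 51 of the 78 genes encode proteins of the large subunit and 26 of the small subunit. Mrps30 and Mrps18a carry small-subunit names but sit in the large subunit, and Mrps36 (also known as Kgd4) is a part of the oxoglutarate dehydrogenase complex rather than of the ribosome. Proteins with a bacterial homologue came from 44 of the genes and mitochondria-specific proteins from 30. The genes lay on 17 chromosomes. The 5 processed pseudogenes with related names (Mrpl23-ps1, Mrpl48-ps, Mrps36-ps1, Mrps36-ps2 and Mrps36-ps3) were not members, and their summed counts per gene over all 24 libraries were between 0 and 62. In the GENCODE M21 annotation of mm10, 8 members shared exon bases with another gene on the same strand and 28 with a gene on the other strand. How the authors' counting treated such reads, and whether it used strand, is not given in the sources used here, so the values of these members are less certain.

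The members held 11662 to 23965 counts per library, of library totals from 6707013 to 13124881. This was 0.164% to 0.186% of all counts in 129S1/SvImJ on chow, 0.174% to 0.181% in 129S1/SvImJ on high-fat diet, 0.154% to 0.165% in C57BL/6J on chow and 0.162% to 0.183% in C57BL/6J on high-fat diet. All 8 hepatocyte markers had counts in all 24 libraries. In a bulk sample, fewer cells of a type and less RNA per cell cannot be told apart, and this holds for every level below.

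Within the set, levels were compared per kilobase of the longest principal coding transcript, as CPM (library-scaled counts, the share of a library's counts times 1e6) per kilobase averaged over the 4 groups. The 77 tested members spanned a 32.5-fold range, from 1.59 to 51.8 CPM per kilobase, with a median of 14.3 against 6.83 for 12377 protein-coding genes tested. Mrpl12, the stalk protein that receives translation factors, was highest at 51.8 ± 5.92 (SD over 24 libraries). Mrpl52 followed at 45.6 ± 7.00, Mrpl14 at 43.1 ± 5.55, Mrpl33 at 38.5 ± 9.17 and Mrpl42 at 38.2 ± 5.23. Each of these 5 encodes a large-subunit protein, and from Mrpl52 down to Mrpl42 neighbours in the order differed by less than these SDs. The median was 16.3 for the 50 tested large-subunit members and 13.7 for the 26 small-subunit members.

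At the low end stood Mrpl19 at 2.88 ± 0.261 CPM per kilobase, Mrps33 at 2.67 ± 0.520, Mrps36 at 2.02 ± 0.923 and Mrps25 at 1.59 ± 0.209. The order depends on the length used: with all annotated exons merged, Mrpl33 moved from rank 4 to rank 72 of 78, because its merged exons span 7326 bases against 478 for the principal transcript. Cytosolic ribosomal protein genes had a median of 74.2 CPM per kilobase. Mrpl53 was the only member that failed the filter, with a mean of 0.0378 CPM. All 695 bases of its principal transcript are shared on the same strand with Gm42688, which was at a mean of 1.47 CPM, so the count of Mrpl53 says little about its RNA.

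**Figure D1:**
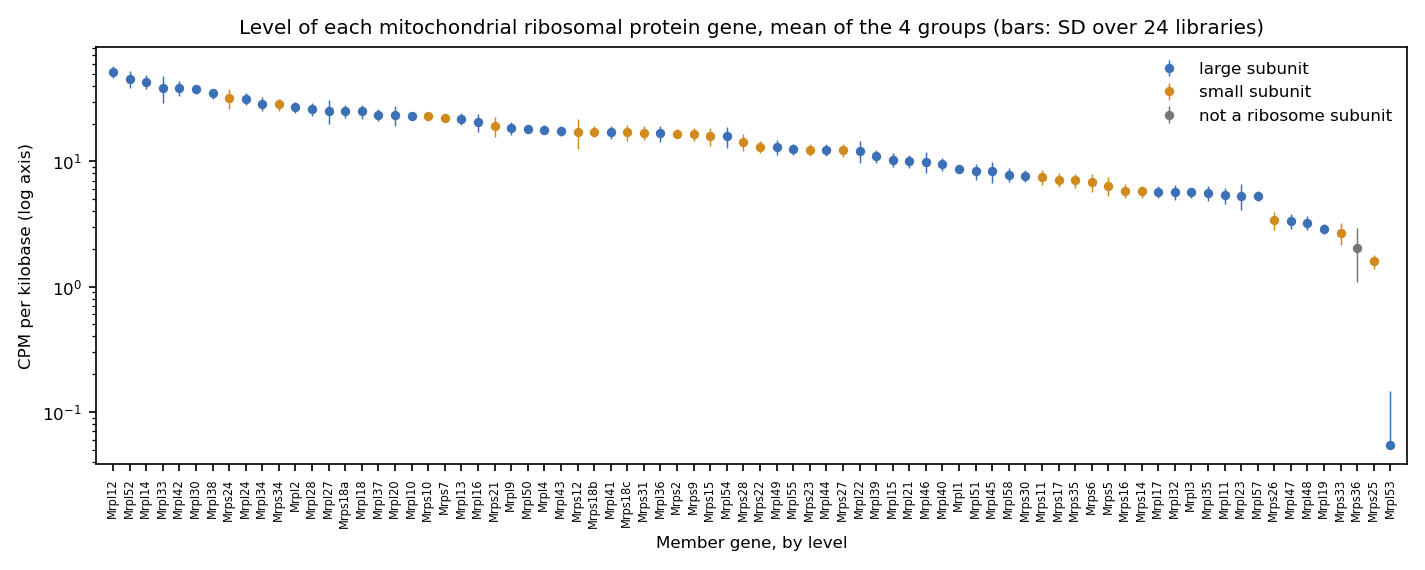
Level of each of the 78 genes, in CPM per kilobase of principal transcript on a log axis, ordered from highest to lowest and coloured by subunit. Points are means of the 4 group means and bars the SD over 24 libraries, with no lower bar where the SD exceeds the mean. All but Mrpl53 lie between 1.59 and 51.8.

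Among mice of 1 group the members varied less than the typical gene. The median coefficient of variation within groups was 11.1% for the 77 members, against 15.2% for all genes tested. The sets were not matched for level, and the members' median level was above that of tested protein-coding genes.

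Promoter sequence was available for 69 of the 78 members, as the RefSeq window from 250 bases before to 50 bases after the gene start on GRCm38.p6. A set of 6 motifs was searched on both strands. The ETS-family letters CCGGAAG (bound by GABP, a regulator of nuclear genes for mitochondria) were in 25 of the 69 windows, 36.2%, against 18.1% of the windows of 9782 tested protein-coding genes. The YY1 letters AAGATGGC were in 12, 17.4% against 4.74%, and the nuclear respiratory factor 1 letters GCGCATGCG in 7, 10.1% against 3.71%. At least 1 of these 3 was in 37 windows, 53.6%, a share not computed for other genes. In 59 windows of cytosolic ribosomal protein genes the ETS, YY1 and nuclear respiratory factor 1 letters were in 39%, 10.2% and 3.39%. In 63 windows of nuclear genes for oxidative phosphorylation subunits they were in 23.8%, 12.7% and 12.7%. Shares above those of tested protein-coding genes were thus not particular to the members for any of these 3 motifs. The YY1 share was 17.4% in the members, and lower in the cytosolic and oxidative phosphorylation sets, at 10.2% and 12.7%. The SP1 letters GGGCGG were in 49.3% against 63.4%, CCAAT in 39.1% against 38.7% and the E-box CACGTG in 7.25% against 10.1%. The end of CCGGAAG can share 3 bases with the start of AAGATGGC, which occurred in 0 of the members' windows. A match of letters is a description of sequence, and binding was not measured.

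Stretches of 150 bases just before the RefSeq start are shown, 5′ to 3′ on the gene's strand, for the member called higher on high-fat diet in both strains (Mrpl45), for the member with the smallest p in the diet comparison of 129S1/SvImJ (Mrpl27), for a member with both ETS and nuclear respiratory factor 1 letters (Mrpl22) and for the member with the smallest p between strains (Mrps12). Capitals mark CCGGAAG, GCGCATGCG and CCAAT on either strand, and the sequences are those of the C57BL/6J reference from RefSeq, GRCm38.p6. In mm10 the genes span chr11:97315716-97329920 (Mrpl45), chr11:94653767-94660089 (Mrpl27) and chr7:28739641-28741820 (Mrps12) in GENCODE M21, whose starts differ slightly from those of RefSeq, so that the last bases of the Mrpl27 and Mrpl22 stretches lie inside the GENCODE genes.
Mrpl45, chr11:97315566-97315715, plus strand: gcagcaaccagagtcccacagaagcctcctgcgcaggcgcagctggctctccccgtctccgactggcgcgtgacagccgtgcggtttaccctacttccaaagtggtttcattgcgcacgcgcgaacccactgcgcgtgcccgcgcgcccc
Mrpl27, chr11:94653641-94653790, plus strand: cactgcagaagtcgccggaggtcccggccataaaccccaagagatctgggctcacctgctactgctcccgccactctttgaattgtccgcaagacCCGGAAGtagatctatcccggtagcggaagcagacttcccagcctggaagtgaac
Mrpl22, chr11:58171514-58171663, plus strand: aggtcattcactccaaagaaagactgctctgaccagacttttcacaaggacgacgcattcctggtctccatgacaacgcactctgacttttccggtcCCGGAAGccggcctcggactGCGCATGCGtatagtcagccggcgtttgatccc
Mrps12, chr7:28741822-28741971, minus strand: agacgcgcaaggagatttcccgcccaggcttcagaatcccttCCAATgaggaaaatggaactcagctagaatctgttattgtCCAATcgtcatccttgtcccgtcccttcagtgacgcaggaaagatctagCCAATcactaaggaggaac
The Mrpl45 stretch holds 17 CpG dinucleotides and none of the marked letters, whereas the Mrps12 stretch holds 6 CpG and 3 copies of CCAAT.

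A head-to-head neighbour was common among the members. In 33 of 78, 42.3%, the start of a protein-coding gene on the other strand lay within 1000 bases in head-to-head orientation, against 15.7% of 12386 tested protein-coding genes. The paired genes lay apart for 18 members (23.1% against 9.91%) and overlapped at their starts for 15 (19.2% against 5.82%). Several partners also serve mitochondria: Mrpl36 starts 29 bases from Ndufs6 and Mrpl47 615 bases from Ndufb5, both complex I subunits, Mrpl43 779 bases from the mitochondrial helicase gene Twnk, and Mrps12 172 bases from Sars2, the mitochondrial seryl-tRNA synthetase. Mrpl46 and Mrps11, of different subunits, start 412 bases from each other. Of these, Mrps12 and Sars2 lay apart and the others overlapped, so that their counts could share reads if strand was not used.

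Before the comparisons, 1 feature of the libraries bears on all of them. The small nuclear RNA 7SK (Rn7sk), an abundant RNA without a poly(A) tail, ranged from 2097 to 7258 CPM, and the widest gap in this range set apart 2 libraries of 129S1/SvImJ on chow, replicate 3 at 7258 CPM and replicate 4 at 6206 CPM. The mean log2(CPM + 0.5) of the 77 members was higher beside more 7SK in some groups and not in others. In C57BL/6J on chow, the 3 livers with 4121, 4266 and 5005 CPM of 7SK had member means of 4.26, 4.27 and 4.31, and the 3 with 2097, 2297 and 2765 CPM had 4.18, 4.17 and 4.13. In 129S1/SvImJ on high-fat diet, the 3 livers with 2623, 2678 and 3218 CPM had means of 4.35, 4.37 and 4.37, and the 3 with 4657, 4957 and 5081 CPM had 4.34, 4.37 and 4.39. In 129S1/SvImJ on chow, the 3 livers with 2526, 2527 and 2647 CPM had means of 4.17, 4.17 and 4.24. The 2 libraries set apart, at 6206 and 7258 CPM, had 4.25 and 4.43. In C57BL/6J on high-fat diet, the livers with 2162, 2677, 3493 and 3562 CPM had means of 4.22, 4.28, 4.16 and 4.27. Those with 4000, 4080 and 4128 CPM had 4.38, 4.26 and 4.31. In a fit with log2 7SK as a term beside the groups, 58 of 77 members had a positive slope, against 6792 of 14533 genes tested. There edgeR called 9 members rising and 0 falling with 7SK, 11.7% against 3.97% of all genes. The members' median slope was 0.10 per doubling, against -0.011 for all genes. Of 80 cytosolic ribosomal protein genes, 68 had a positive slope, and 32 were called rising and 0 falling, 40%, with a median of 0.13. The part of 7SK in the group comparisons was not tested beyond the fits given with each.

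**Figure D2:**
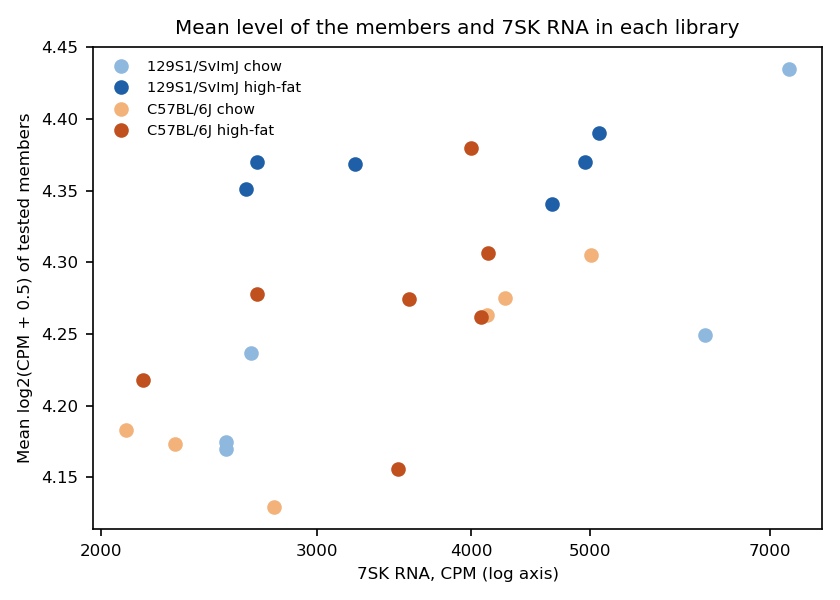
Mean log2(CPM + 0.5) of the 77 tested members in each of 24 libraries against 7SK RNA in CPM on a log axis, coloured by group. The 6 livers of 129S1/SvImJ on high-fat diet lie between 4.34 and 4.39 over a 7SK range of 2623 to 5081 CPM, and 129S1/SvImJ chow replicate 3 is highest on both axes.

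Over libraries, the members' mean was 4.25 ± 0.108 (SD, n = 5) in 129S1/SvImJ on chow, with single livers at 4.17, 4.17, 4.43, 4.25 and 4.24. It was 4.37 ± 0.0172 (n = 6) in 129S1/SvImJ on high-fat diet, 4.22 ± 0.0692 (n = 6) in C57BL/6J on chow and 4.27 ± 0.0699 (n = 7) in C57BL/6J on high-fat diet. The 129S1/SvImJ high-fat livers were the most alike of the 4 groups, and all 6 lay above all 6 C57BL/6J chow livers, which reached 4.31. Both subunits showed this order, with large-subunit means of 4.40, 4.51, 4.38 and 4.43 and small-subunit means of 4.09, 4.20, 4.06 and 4.09 for the groups in the same sequence, with differences among the other 3 groups smaller than their SDs.

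The diet comparison in 129S1/SvImJ asked which members differed between livers on high-fat diet and on chow. Of 77 members, 3 rose and 0 fell, 3.90% of the members against 10.4% of all genes tested (5.41% higher and 5.01% lower). Most of the others leaned upward without passing the test: 66 of 77 fold changes were above 0, with a median log2 fold change of 0.10 against -0.0040 for all genes, and 15 had an unadjusted p under 0.05. Group values did not overlap for 5 members (Mrpl14, Mrpl27, Mrpl45, Mrps5 and Mrps11), 7.73% of all genes having such a gap. Of the cell type markers, all 7 Kupffer fold changes were above 0 in the same comparison, with a median of 0.72 and 1 called (C1qa), and their sums were 54.7 to 147 CPM on chow and 86.7 to 195 CPM on high-fat diet. In the stellate list 1 of 6 markers was higher (Lrat; sums of 347 to 510 and 407 to 484 CPM), and in the hepatocyte list 1 of 8 was lower (Apoa1; sums of 79554 to 99537 and 67002 to 88192 CPM). All of these markers had counts in all 24 libraries, and their part in the members' values was not tested.

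Mrpl27, a large-subunit protein of bacterial origin near the peptidyl transferase centre, was at 18.1, 15.7, 20.4, 17.8 and 19.95 CPM in the 5 chow livers and at 20.4 to 27.4 CPM (median 26.1) in the 6 high-fat livers. Every high-fat liver was above every chow liver, although the lowest high-fat and the highest chow value round to the same number. The log2 fold change was 0.45 ± 0.09 (SE; edgeR, adjusted p = 0.00227). Mrpl45, a mitochondria-specific protein at the tunnel exit that helps to hold the ribosome at the inner membrane, was at 15.0, 18.6, 19.8, 16.1 and 13.5 CPM on chow and at 20.2 to 24.7 CPM (median 21.9) on high-fat diet. Its groups did not overlap either, a log2 difference of 0.41 ± 0.10 (edgeR, adjusted p = 0.0106).

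Mrpl14 (chr17:45686322-45698495, mm10), a conserved large-subunit protein, was at 28.3, 25.9, 29.9, 24.4 and 30.2 CPM on chow and at 30.9 to 35.8 CPM (median 31.6) on high-fat diet. Its log2 fold change was 0.23 ± 0.07 (edgeR, adjusted p = 0.0389), the smallest of the 3. This call was lost when any 1 of chow replicates 1, 2 and 4 or high-fat replicates 1, 2 and 6 was left out (adjusted p up to 0.118), and without the 2 libraries of highest 7SK (adjusted p = 0.0942).

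The lowest fold changes, neither of which passed the test, were those of the small-subunit genes Mrps27 (log2 fold change -0.22, edgeR adjusted p = 0.0977) and Mrps26 (-0.16, adjusted p = 0.367). All 15 tested small-subunit members with a bacterial homologue had fold changes above 0, with a median of 0.18, yet 0 of them were called. Among mitochondria-specific members, 7 of 10 of the small subunit (median 0.037) and 18 of 19 of the large subunit (median 0.088) were above 0. Of large-subunit members with a bacterial homologue 22 of 29 were (median 0.088). The difference between these classes was not tested. The number of members called rose from 3 to 8, all higher, without the 2 libraries of highest 7SK, and to 6 with log2 7SK as a term. Leaving out chow replicate 3 or high-fat replicate 4 gave 5. Shares of all genes called in these fits are not given here. Without the 2 libraries, Mrpl22, Mrpl33, Mrpl35, Mrpl39, Mrpl49 and Mrps28 joined Mrpl27 and Mrpl45, chosen for naming after their values were seen, with log2 fold changes from 0.29 to 0.57.

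In C57BL/6J, 2 of 77 members rose on high-fat diet and 0 fell, 2.60% against 14.9% of all genes (7.66% higher and 7.20% lower). Here 54 of 77 fold changes were above 0, with a median of 0.05 against 0.0070 for all genes, and 14 had an unadjusted p under 0.05. The values of the groups overlapped for all 77 members, while 3.89% of all genes were free of overlap.

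Mrpl45 was again one of those called. It was at 16.2 to 19.4 CPM (median 18.4) in the 6 chow livers and at 17.8 to 27.8 CPM (median 24.8) in the 7 high-fat livers, where replicate 6 alone lay within the chow range. The log2 fold change was 0.41 ± 0.09 (edgeR, adjusted p = 0.00327). Mrpl16 (chr19:11770391-11774960, mm10), another conserved large-subunit protein, was at 19.0 to 24.4 CPM (median 21.7) on chow and at 22.6 to 36.7 CPM (median 27.9) on high-fat diet, a log2 difference of 0.37 ± 0.09 (edgeR, adjusted p = 0.0097).

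For Mrpl16 in 129S1/SvImJ the log2 fold change was 0.12 (edgeR, adjusted p = 0.527), and the difference between strains had an adjusted p of 0.438. Mrpl15 (-0.21, edgeR adjusted p = 0.0658) and Mrpl47 (-0.20, adjusted p = 0.224) had the lowest fold changes and did not pass. The count of members called was 4 with upper-quartile scaling and 4 without high-fat replicate 4, of which 1 was lower. Calls of Mrpl45 in both strains, of Mrpl27 in 129S1/SvImJ and of Mrpl16 in C57BL/6J held under all 36 alternatives run.

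Markers of other cell types moved with diet in C57BL/6J: of 8 adipocyte markers 4 passed the filter and all 4 rose (Lipe, Fabp4, Cfd and Cidea), and the list summed to 31.5 to 41.5 CPM on chow and 91.5 to 369 CPM on high-fat diet. The defining adipocyte markers Adipoq and Lep had a count in 9 and 3 of the 24 libraries and were at 0 in the rest. Of 8 hepatocyte markers 4 fell, with sums of 89959 to 97723 CPM on chow and 61671 to 82638 CPM on high-fat diet. Their part in the members' values was not tested. Without the 2 libraries that hold Adipoq, Lep and Plin1 transcripts together (129S1/SvImJ chow replicate 1 and C57BL/6J high-fat replicate 5), the count of members called was 2 in each strain.

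**Figure D3:**
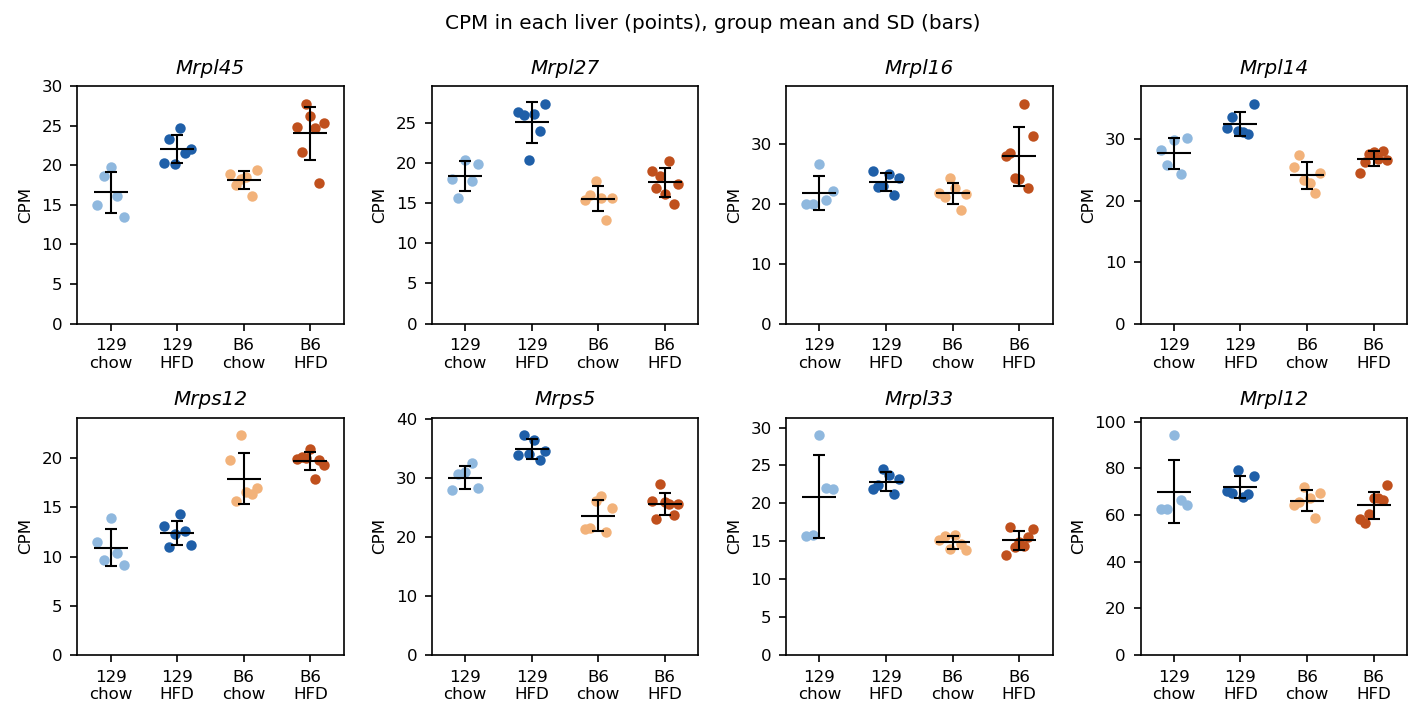
CPM of 8 members in each liver (points) with the group mean and SD (bars), for 129S1/SvImJ (blue) and C57BL/6J (orange, B6) on chow or high-fat diet (HFD). Mrpl45 is higher on high-fat diet in both strains, Mrps12 is lower and Mrps5 higher in 129S1/SvImJ on both diets, and Mrpl12 has 1 high liver at 94.3.

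The test of the difference between the 2 diet responses called 0 of 77 members in edgeR, and 0 in DESeq2, against 0.296% of all genes, and 7 members had an unadjusted p under 0.05. Of the fold-change differences 54 were above 0, with a median of 0.08 against -0.0058 for all genes. The smallest p belonged to Mrps14 (0.34 ± 0.12, edgeR adjusted p = 0.168), followed by Mrps18b (0.28, adjusted p = 0.232), Mrps11 (0.38, adjusted p = 0.304) and Mrpl30 (0.21, adjusted p = 0.326). A difference in diet response between strains was thus not detected for any member, which does not show that the responses were alike.

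Cytosolic ribosomal protein genes, the closest group by function, gave other counts on the same libraries. Of 80 tested, 0 rose and 1 fell on high-fat diet in 129S1/SvImJ (median -0.07), and 0 rose and 63 fell in C57BL/6J (median -0.35). The difference between responses was called for 7 of them. Nuclear genes for oxidative phosphorylation subunits stood closer to the members in value, with 7 of 76 higher in 129S1/SvImJ (median 0.10) and 4 higher in C57BL/6J (median 0.10). The difference between the lists was not tested.

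**Figure D4:**
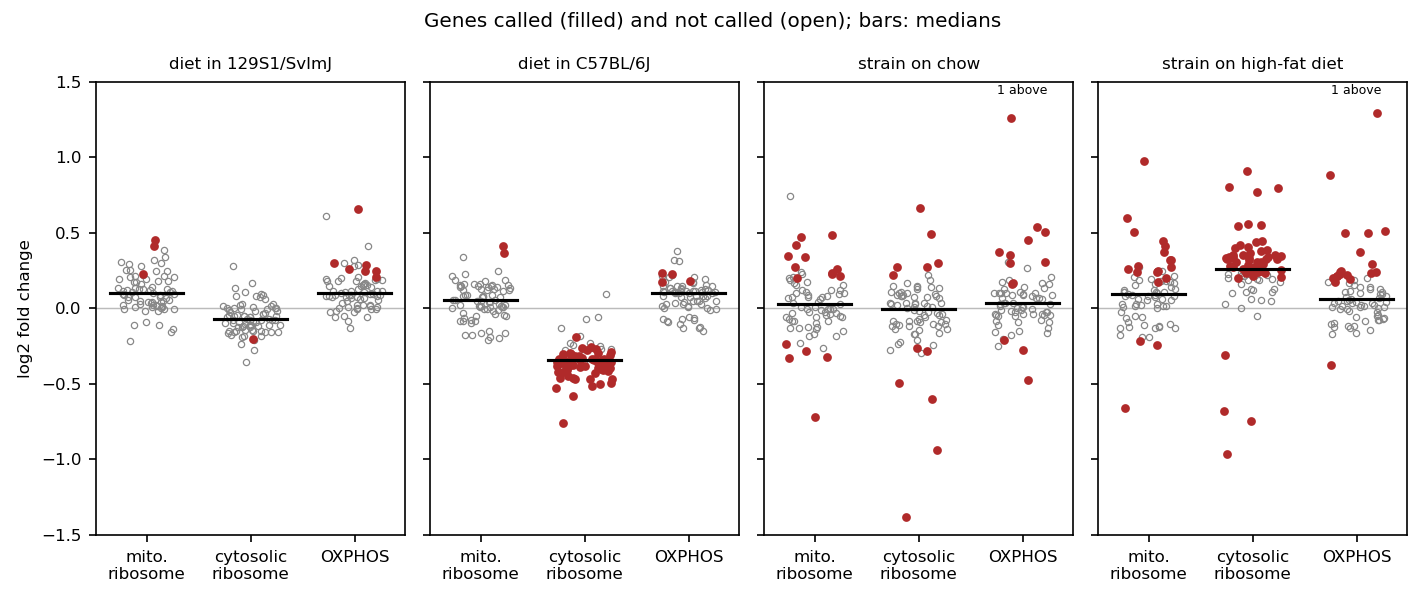
Log2 fold change of each tested gene of 3 sets, for high-fat diet against chow within each strain and for 129S1/SvImJ against C57BL/6J on each diet. Filled points were called at an adjusted p under 0.05, open points were not, and bars are medians. The 63 cytosolic ribosomal protein genes called lower in C57BL/6J on high-fat diet lie below 0, with a median of -0.35 over that set, and the mitochondrial median there was 0.05. One oxidative phosphorylation gene lies above the axis in each strain panel.

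Between strains, members differed in both directions. On chow, 11 of 77 were higher and 5 lower in 129S1/SvImJ than in C57BL/6J, 20.8% against 25.0% of all genes (12.6% higher and 12.5% lower). The median log2 fold change was 0.03 against 0.01 for all genes, 41 fold changes were above 0, and 8 members had groups that did not overlap, against 15.1% of all genes. In the fits, no member called in any of the 4 comparisons of diet or strain reached a 2-fold change.

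Mrps12, a conserved protein of the decoding centre, differed most clearly. It was at 11.5, 9.63, 13.9, 10.3 and 9.19 CPM in 129S1/SvImJ on chow and at 15.6 to 22.3 CPM (median 16.7) in C57BL/6J on chow. On high-fat diet it was at 11.0 to 14.3 CPM (median 12.4) and 17.9 to 20.9 CPM (median 19.9). All 11 livers of 129S1/SvImJ were below all 13 livers of C57BL/6J. The log2 fold change was -0.72 ± 0.11 on chow and -0.66 ± 0.09 on high-fat diet (edgeR, adjusted p = 9.16e-06 and 3.27e-06).

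Its head-to-head neighbour Sars2 went the other way, and is named here because of that. Sars2 was at 11.4, 9.53, 10.1, 10.6 and 9.45 CPM in 129S1/SvImJ on chow against 7.53 to 9.36 CPM in C57BL/6J on chow. Its log2 fold change was 0.29 on chow and 0.41 on high-fat diet (edgeR, adjusted p = 0.0424 and 0.00103). Among members with a head-to-head partner, both genes were called between strains in 4 pairs on each diet, 3 of them in the same direction (on chow Mrpl37 with Cyb5rl, Mrpl48 with Rab6a and Mrps5 with Zfp661), and Mrps12 with Sars2 was the pair with opposite directions. Of 29 tested partners, 6 were called between strains on chow and 9 on high-fat diet, where 25.0% and 37.0% of all genes were called. The share of pairs with both genes called was not computed for other genes. Mrpl48 and Rab6a overlap, so their reads cannot be told apart if strand was not used.

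Mrps5 (chr2:127587222-127606829, mm10), a conserved small-subunit protein, was the member with the smallest p among those higher on chow. It was at 27.9, 30.7, 31.0, 32.6 and 28.4 CPM in 129S1/SvImJ and at 20.9 to 27.1 CPM (median 23.2) in C57BL/6J, a log2 difference of 0.35 ± 0.07 (edgeR, adjusted p = 0.000946). Mrpl33 (chr5:31596935-31664384, mm10), a small conserved protein of the large subunit, was at 15.7, 15.8, 29.0, 22.0 and 21.9 CPM against 13.9 to 15.9 CPM (median 14.9), a log2 difference of 0.49 (edgeR, adjusted p = 0.00195). Its 2 lowest livers lay within the C57BL/6J range.

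Mrps26, Mrps24, Mrpl37, Mrpl51, Mrpl28 and Mrps35 were higher as well, with log2 fold changes of 0.47, 0.42, 0.27, 0.34, 0.26 and 0.23. The other 3 called higher were Mrpl14, Mrps9 and Mrpl49, at 0.20 to 0.23. Lower, beside Mrps12, were Mrpl18 (-0.33), Mrpl48 (-0.32), Mrps14 (-0.28) and Mrpl15 (-0.23). The genes came from both subunits, 9 of 50 tested large-subunit members and 7 of 26 small-subunit members being called in either direction.

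This comparison depended on the 2 libraries of highest 7SK, both of 129S1/SvImJ on chow. Without them 3 members were higher (Mrps26, Mrpl37 and Mrps5) and 10 lower, and the median log2 fold change was -0.06 in place of 0.03. The median of all genes changed sign as well, from 0.01 to -0.0073. Of the 16 calls 8 remained and 8 were lost, among them Mrpl33 (0.24, edgeR adjusted p = 0.0917) and Mrps24 (0.26, adjusted p = 0.0669), and 5 were gained, all lower (Mrpl9, Mrpl22, Mrpl39, Mrpl50 and Mrpl52). Mrps12 was then at -0.84. With a term that only marks these 2 libraries, which is close to leaving them out, 4 were higher and 8 lower. With measured log2 7SK as a term 12 were higher and 6 lower. The sign of the members' median between strains on chow thus changed with these 2 libraries, as did that of all genes. The share of all genes called in these fits is not given here.

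Single libraries ended some of the weaker calls. That of Mrps14 was lost without 129S1/SvImJ chow replicate 4 (edgeR, adjusted p = 0.0589). Mrpl28 was lost without 129S1/SvImJ chow replicate 3 or 5 (adjusted p up to 0.0647). The call of Mrps35 ended without 129S1/SvImJ chow replicate 4 or 5 or C57BL/6J chow replicate 2, 3 or 4 (up to 0.104). Mrpl15 lost its call without 129S1/SvImJ chow replicate 1, 2, 3 or 5 or C57BL/6J chow replicate 3, 4 or 6 (up to 0.123). Those of Mrpl14, Mrps9 and Mrpl49 were lost in 7, 7 and 6 of 24 such fits (up to 0.123, 0.108 and 0.130). Every one of these losses came from leaving out 1 of the 5 129S1/SvImJ or 6 C57BL/6J chow livers. The rest of the 24 fits left out high-fat livers, which are not in this comparison, or kept the call.

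**Figure D5:**
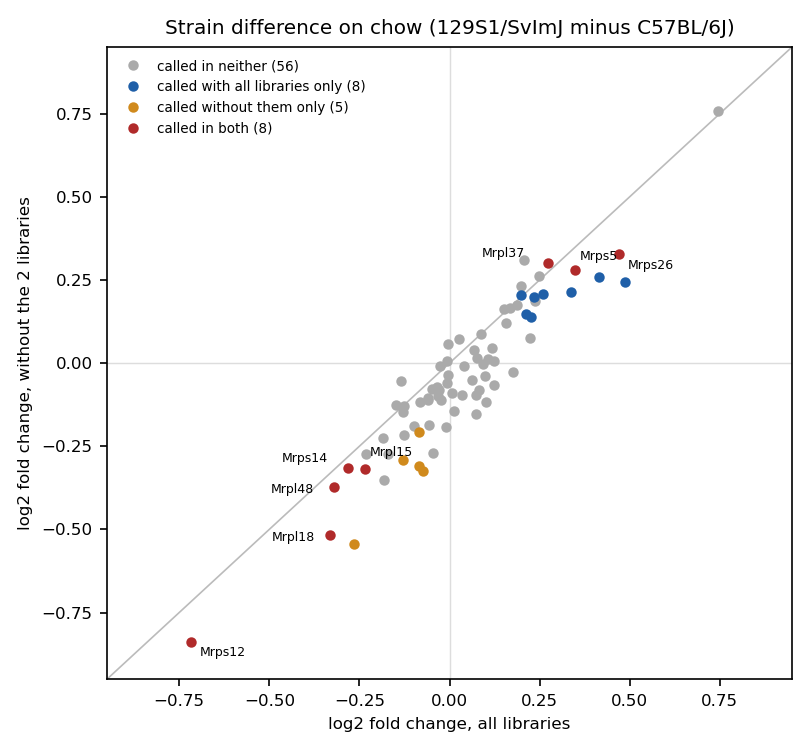
Log2 fold change of each of 77 members between strains on chow, with all libraries (x axis) and without the 2 libraries of highest 7SK (y axis), coloured by whether the member was called. The points of 63 members lie below the diagonal, 47 of 77 are below 0 without the 2 libraries, and 8 members were called in both fits.

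Kupffer cell markers also differed between strains on chow, where all 7 were lower in 129S1/SvImJ, each with counts in all 24 libraries. Their summed level was 54.7 to 147 CPM in 129S1/SvImJ on chow against 164 to 275 CPM in C57BL/6J on chow. All 3 tested lymphocyte markers were lower too. The part of these cells in the members' strain differences was not tested.

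On high-fat diet, 16 of 77 members were higher in 129S1/SvImJ and 3 lower, 24.7% against 37.0% of all genes (17.9% higher and 19.1% lower). The median was 0.10 against 0.0045 for all genes, and 58 fold changes were above 0. Groups did not overlap for 11 members, against 15.1% of all genes. The 2 libraries of highest 7SK are not among these livers but enter the shared estimate of spread, and 24 members were called without them, 19 higher and 5 lower. How many of all genes were called without them is not given here.

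Mrps5 was at 33.0 to 37.3 CPM (median 34.3) in 129S1/SvImJ and at 23.2 to 29.0 CPM (median 25.7) in C57BL/6J, a log2 difference of 0.45 ± 0.07 (edgeR, adjusted p = 9.14e-06). Mrpl27 was at 20.4 to 27.4 CPM (median 26.1) against 14.9 to 20.3 CPM (median 17.5), a log2 difference of 0.51 ± 0.08 (edgeR, adjusted p = 2.82e-05). Mrpl33 was at 21.2 to 24.5 CPM (median 22.8) against 13.2 to 16.9 CPM (median 14.8), a log2 difference of 0.60 ± 0.10 (edgeR, adjusted p = 4.38e-05). In all 3 genes each 129S1/SvImJ liver was above each C57BL/6J liver.

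Mrpl58, a peptidyl-tRNA hydrolase built into the large subunit that can free stalled ribosomes, was at 20.2 to 25.0 CPM (median 22.6) against 15.5 to 18.9 CPM (median 17.6). Its log2 fold change was 0.37 ± 0.07 (edgeR, adjusted p = 0.000154). Mrps9, Mrps24, Mrps35 and Mrps17 of the small subunit were higher by log2 fold changes of 0.32, 0.41, 0.32 and 0.28. Of the lower members beside Mrps12, Mrpl48 was at -0.22 (edgeR, adjusted p = 0.027) and Mrpl16 at -0.24 (edgeR, adjusted p = 0.0468). The call of Mrpl48 was lost without 129S1/SvImJ high-fat replicate 3 or 5 or C57BL/6J high-fat replicate 5 (adjusted p up to 0.0808). The call of Mrpl16 was kept in only 8 of the 24 fits that leave out 1 library (adjusted p up to 0.135). The call of Mrpl51 was lost without 129S1/SvImJ high-fat replicate 4 (edgeR, adjusted p = 0.0565).

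Mrps36, which is not a ribosomal subunit, had the largest fitted fold change of the set, at 1.70 to 2.48 CPM (median 2.11) in 129S1/SvImJ against 0.119 to 2.12 CPM (median 1.04) in C57BL/6J on high-fat diet. The log2 fold change was 0.97 ± 0.29 (edgeR, adjusted p = 0.00874), just under 2-fold, while its group means of 2.10 and 1.03 CPM differed by slightly more, and the groups overlapped through C57BL/6J replicate 7. On chow its log2 fold change of 0.74 did not pass (edgeR, adjusted p = 0.11). Its level was low, and its SE was the largest of those given here.

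The 2 strain comparisons share no livers, but both use the shared estimate of spread over all 24 libraries. The same direction was called in both for 11 members, 68.8% of the calls on chow and 57.9% of those on high-fat diet: Mrps12 and Mrpl48 lower, and Mrps5, Mrps9, Mrps24, Mrps35, Mrpl14, Mrpl33, Mrpl37, Mrpl49 and Mrpl51 higher. Without the 2 libraries of highest 7SK, the chow calls of Mrps9, Mrps24, Mrps35, Mrpl14, Mrpl33, Mrpl49 and Mrpl51 were lost. Their edgeR adjusted p-values on chow were then 0.0669 to 0.283. The chow calls of Mrps12, Mrpl48, Mrps5 and Mrpl37 were kept in that fit. Across the 2 diet and 2 strain comparisons, 25 members were called at least once and 52 never. The matching shares of all genes were not computed, so these counts do not set the members apart from other genes. On high-fat diet 4 of 7 Kupffer markers and 4 of 4 tested adipocyte markers were lower in 129S1/SvImJ, with Kupffer sums of 86.7 to 195 CPM against 157 to 387 CPM and adipocyte sums of 26.5 to 36.8 CPM against 91.5 to 369 CPM. Their part was not tested.

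For comparison, 52 of 80 tested cytosolic ribosomal protein genes were higher and 4 lower in 129S1/SvImJ on high-fat diet (median 0.26), and 6 were higher and 6 lower on chow. Of 76 oxidative phosphorylation genes, 19 were higher and 1 lower on high-fat diet and 11 higher and 3 lower on chow.

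Of the mitochondrial ribosome proteins that carry other gene symbols, 5 were tested and 0 were called for diet in either strain. Between strains, Aurkaip1 was higher by 0.46 on chow and 0.54 on high-fat diet and Dap3 by 0.32 and 0.24, and Gadd45gip1 was lower (-0.49 and -0.65). These changes all had edgeR adjusted p-values under 0.05. Ptcd3 was higher on high-fat diet (0.22) and not called on chow, and the interaction test called 0 of the 5.

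Genes that build or serve the mitochondrial ribosome were counted in the same fit. Of 29 genes for ribosome assembly and rRNA modification, 8 were higher and 0 lower in 129S1/SvImJ on chow, and 13 higher and 1 lower on high-fat diet. These are 27.6% and 48.3% of the list, against 25.0% and 37.0% of all genes, with medians of 0.15 and 0.17. Tfb1m, which dimethylates the small rRNA, was at 9.84 to 13.0 CPM in 129S1/SvImJ on chow against 6.68 to 8.69 CPM in C57BL/6J, and at 13.8 to 17.0 CPM against 7.05 to 9.65 CPM on high-fat diet. Its groups did not overlap on either diet, and it was also the 1 gene of this list that rose with diet in 129S1/SvImJ (0.45, edgeR adjusted p = 0.00374). Ngrn, needed for the large rRNA, was higher in 129S1/SvImJ by 0.64 and 0.58. In C57BL/6J, Mettl15, a methyltransferase for the small rRNA, rose on high-fat diet (0.57).

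Of 15 translation factors, Gfm1, the elongation factor that moves the ribosome along the messenger RNA, was the 1 gene that rose with diet in each strain. It was at 76.8 to 90.1 CPM on chow and 103 to 114 CPM on high-fat diet in 129S1/SvImJ (0.42, edgeR adjusted p = 0.000321), and at 77.0 to 90.5 and 81.2 to 117 CPM in C57BL/6J (0.35, adjusted p = 0.000696). Between strains, 3 were higher on chow (Tufm, Oxa1l and Taco1), and 5 were higher and 2 lower on high-fat diet, among them Lrpprc (0.45) and Mtfmt (-0.42), which is 20% and 46.7% of the list against 25.0% and 37.0% of all genes. Of 20 mitochondrial aminoacyl-tRNA synthetases and related enzymes, 3 rose with diet in C57BL/6J (Gatb, Iars2 and Pars2), 15% against 14.9% of all genes. Between strains 4 were higher and 1 lower on high-fat diet, 25% against 37.0%, and Ears2 was higher by 0.68 on chow and 0.94 on high-fat diet.

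Of 15 tested genes for transcription of mitochondrial DNA and RNA processing, Hsd17b10, a subunit of the mitochondrial RNase P, rose with diet in both strains (0.52 and 0.46) and was lower in 129S1/SvImJ on both diets (-0.37 and -0.31). Over the whole list, with diet in C57BL/6J 12 of 15 fold changes were below 0 (median -0.07, with Hsd17b10 the 1 gene called), and between strains on high-fat diet 14 of 15 were above 0 (median 0.17, 4 called higher and 1 lower). In the other comparisons, 2 were higher and 0 lower with diet in 129S1/SvImJ, and 1 was higher and 1 lower between strains on chow. Among 11 regulators of mitochondrial biogenesis, Esrra, a nuclear receptor that drives such genes, rose on high-fat diet in both strains (0.35 and 0.28), and Nrf1, Yy1 and Sirt1 fell in C57BL/6J (-0.32, -0.24 and -0.25). The calls were 9.09% of this list in 129S1/SvImJ, against 10.4% of all genes, and 36.4% in C57BL/6J, against 14.9%. Nrf1 was also lower in 129S1/SvImJ than in C57BL/6J on chow (-0.40). All of these had edgeR adjusted p-values under 0.05, and no link between a regulator's level and the members' promoters was tested.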

How the data were processed

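The count matrix deposited by the authors holds raw whole-number counts per gene for 24 libraries, 1 per mouse, and the 24 per-library files were identical to its columns. Per the submitters' processing notes, the tools included STAR 2.5.4b, Bowtie2 2.2.3, Trimmomatic 0.36 and DESeq2 1.26.0, with mm10, the C57BL/6J genome. How this bears on counts of 129S1/SvImJ was not tested. The strand setting, like the counting tool and annotation release, was not given in the sources used here. Deposited variance-stabilized values, on a log2-like scale, served for 1 alternative with limma 3.58.1.

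Identifiers were matched to GENCODE M21 (53582 of 53677). Counts were tested in R 4.3.3 with edgeR 4.0.16: TMM factors, filterByExpr, robust quasi-likelihood fits with 4 group means over all 24 libraries, and Benjamini-Hochberg adjustment over 14533 genes, called at an adjusted p under 0.05. The fits were tested on simulated data. SEs are the fold change divided by the root of F. CPM used TMM-scaled totals, with a pseudocount of 0.5 on the log2 scale. P-values set differences against the spread between mice of a group, taken as independent. The sample titles carry a number shared by several mice of a group and found in no other group. Its meaning is not given, and no fit used it. If mice that share it are more alike, the p-values are too small. DESeq2 1.42.0, other scalings, filters, a replicate block, 7SK terms and leaving out libraries were alternatives. The 2 settings with log2 7SK and without the 2 libraries of highest 7SK were chosen after seeing the data.

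Members and lists were chosen with earlier results of these data known. Genes named are the called members with the smallest p (up to 8 per direction), the extremes of level and of diet response, the smallest interaction p-values, members of unusual place or failing the filter, and up to 3 called genes per direction of each related list. Others are named where a count is itemised, after their values were seen. 1 gene of a related list, with the counts that rest on it, is not reported here.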

Additional observations from a re-analysis of the deposited data

Results flagged for a closer look

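Within each group, the highest and lowest livers of the named members were compared with the rest. In 6 of 144 sets of values, 4.17%, 1 liver stood apart, and chance flags about 1 in 20.

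In 129S1/SvImJ on chow, replicate 3 stood apart for Mrpl12 at 94.3 CPM, with the nearest liver at 66.5 CPM, and for Mrpl52 at 28.5 CPM, with the nearest at 17.8 CPM. This library also had the most 7SK RNA, 7258 CPM. Replicate 5 of the same group was low for Mrps33 at 1.84 CPM, with the nearest at 2.72 CPM. For Mrps18a in C57BL/6J on chow, replicate 5 was at 17.0 CPM and the nearest at 21.9 CPM. Mrpl53 was at 0.105 CPM in replicate 2 of 129S1/SvImJ on chow and at 0.155 CPM in replicate 2 of 129S1/SvImJ on high-fat diet, with all other livers of these groups at 0, which is a difference of very few counts.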

How the results depend on the processing

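Across 39 results for named members and 36 alternatives, no direction reversed, 72 values lost and 6 gained their call, and 1322 did neither. Most of these results were named for a small p or an extreme fold change, so a reversal was unlikely from the start. Other members did change direction: between strains on chow 41 of 77 fold changes were above 0 with all libraries. Without the 2 libraries of highest 7SK, 47 were below 0. Of members called for diet in 129S1/SvImJ (3), there were 8 with a term that only marks the 2 libraries of highest 7SK. There were 6 with log2 7SK, 8 without those 2 libraries, and 2 to 5 with 1 library left out. For diet in C57BL/6J (2) there were 4 with upper-quartile factors and 2 to 4 with 1 library left out. For strain on chow (16) there were 9 without a filter on low counts, and 12 to 18 with 1 library left out. The median member log2 fold change, strain on chow, was -0.0465 with the term that marks the 2 libraries of highest 7SK. It was -0.0605 without those 2 libraries, and -0.0154 to 0.0575 with 1 library left out. Shares of all genes called under these settings are not given here, and the cause of these shifts was not tested. For strain on high-fat diet (19) the range was 16 to 24, and for the interaction 0 to 0. Replicate numbers did not pair the mice: of 33 same-numbered pairs 14 had a correlation over 0.1, and 7 of 24 libraries correlated best with their own number. With the replicate number as a block, 3, 3, 17, 20 and 0 members were called in the 5 comparisons. A fit of only the groups compared could not be made for the interaction. Low counts limit Mrps36 and Mrpl53.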
